A study of Mus musculus with 2 samples.

Results

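Small leucine-rich proteoglycans (SLRPs) are secreted matrix proteins built around a run of leucine-rich repeats, most of which carry chondroitin, dermatan or keratan sulfate chains. They bind collagen fibrils, where they limit lateral fusion and set fibril diameter and spacing, and several also bind growth factors. In tendon, decorin, biglycan, lumican and fibromodulin are the best studied of them. Described here are 10 genes of the family, chosen by symbol: *Dcn*, *Bgn* and *Aspn* of class I, *Fmod*, *Lum*, *Kera*, *Prelp* and *Omd* of class II, and *Epyc* and *Ogn* of class III. The choice was made with earlier results of these data known. All 10 were found among the 22096 gene symbols of the deposited files.

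RNA was sequenced from cells of mouse forelimbs at E13.5 of gestation, of mixed strain background, sorted by FACS for green fluorescence. The reporter, ScxGFP, places GFP under control of *Scx* regulatory DNA; *Scx* codes for scleraxis, the basic helix-loop-helix factor that marks cells on the way to tendon and ligament. The labels name no other sort marker, so ScxGFP-negative cells can be of any other type in the limb. The 2 groups were ScxGFP-positive and ScxGFP-negative cells, each with 1 library from 6 pooled forelimbs (3 pairs). With no replicates there is no test and no replicate error: each difference describes these 2 libraries only.

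Levels are FPKM, a fragment count divided by transcript length and by the library's mapped fragments, so they can be compared between genes. The log2 ratio is log2((FPKM + 1) in positive / (FPKM + 1) in negative), and a gene is called higher or lower past 2-fold on that scale. *Scx* itself gave 134 and 1.69 FPKM in the positive-cell and negative-cell libraries. Of 12096 genes with at least 1 FPKM in either library (measured genes), 4.03% were higher by 2-fold or more in ScxGFP-positive cells and 9.98% lower, and the median log2 ratio was −0.27. The sequence on listed transcripts was 0.687 gigabases in positive cells and 0.875 in negative cells. For single genes the depth behind a value is given as aligned bases, the deposited coverage times transcript length.

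Transcripts of the family were more abundant in ScxGFP-positive cells, and their make-up differed. The summed level of the 10 genes was 224 FPKM in positive cells and 38.5 FPKM in negative cells, 5.82-fold higher. At least 2-fold higher were 7 of the 10 genes, *Kera*, *Lum*, *Dcn*, *Ogn*, *Fmod*, *Aspn* and *Prelp*. 0 were lower, and *Bgn* and *Omd* were within 2-fold. *Epyc* (0.311 and 0 FPKM) was within 2-fold only through the added 1 FPKM, so it is not read as level. Over all 22090 symbols with a value, 2.21% were that much higher and 5.46% that much lower. The median log2 ratio of the 10 genes was 1.71. In such bulk samples fewer cells of a type and less RNA per cell cannot be told apart, and markers of muscle and of loose connective tissue were higher in the positive library too, as given at the end. *Epyc* did not reach 1 FPKM in either library, and *Kera*, *Aspn* and *Prelp* reached it only in the positive library, so their place among measured genes is owed to the library in which they are high.

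**Figure D1:**
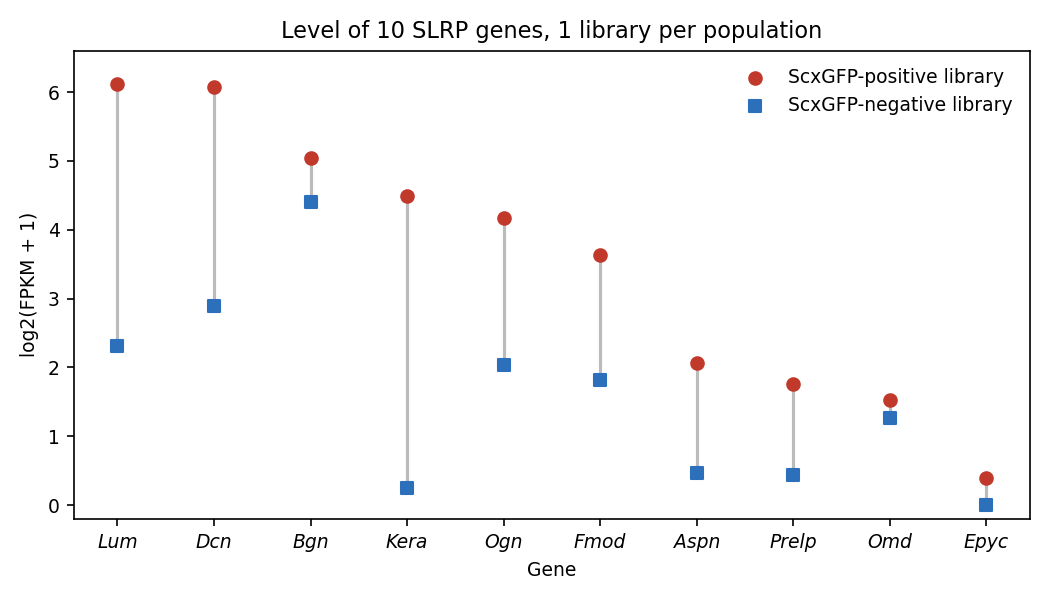
Level of each of the 10 genes on a log2(FPKM + 1) axis in the ScxGFP-positive library (red circles) and the ScxGFP-negative library (blue squares), 1 library each, with no error bars because there are no replicates. The grey lines join the 2 values of a gene. They are longest for *Kera*, *Lum* and *Dcn* and short for *Bgn* and *Omd*. That of *Epyc* is short only through the added 1 FPKM.

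The start regions of some members that were higher can be set beside that of *Bgn*, which was not past 2-fold. Of the 10 genes, 8 (all but *Dcn* and *Lum*) matched an entry in the RefSeq promoter table of build GRCm38.p6, with 9 windows in all, since *Epyc* has more than one start. The 250 bases before the start are shown for *Fmod* (chr1:134037004-134037253, plus strand), *Aspn* (chr13:49544193-49544442, plus strand), *Ogn* (chr13:49607765-49608014, plus strand) and *Bgn* (chrX:73483351-73483600, plus strand). Capitals mark E-boxes, CANNTG, the 6-base core that basic helix-loop-helix factors such as scleraxis bind; the motif is read the same way on both strands.
Fmod: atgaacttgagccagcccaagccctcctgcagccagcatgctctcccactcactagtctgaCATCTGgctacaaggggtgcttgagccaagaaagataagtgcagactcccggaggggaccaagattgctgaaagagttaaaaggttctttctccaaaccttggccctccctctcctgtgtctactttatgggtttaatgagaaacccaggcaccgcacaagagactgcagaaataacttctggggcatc
Aspn: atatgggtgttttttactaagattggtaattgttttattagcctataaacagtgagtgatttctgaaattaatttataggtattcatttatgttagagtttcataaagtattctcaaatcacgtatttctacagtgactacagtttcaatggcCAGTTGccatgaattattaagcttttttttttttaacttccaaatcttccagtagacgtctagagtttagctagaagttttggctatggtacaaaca
Ogn: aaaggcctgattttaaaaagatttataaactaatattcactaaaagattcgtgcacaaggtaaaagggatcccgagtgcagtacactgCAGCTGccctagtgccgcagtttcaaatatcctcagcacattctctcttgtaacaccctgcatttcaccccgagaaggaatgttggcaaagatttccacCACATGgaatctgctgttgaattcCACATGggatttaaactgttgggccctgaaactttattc
Bgn: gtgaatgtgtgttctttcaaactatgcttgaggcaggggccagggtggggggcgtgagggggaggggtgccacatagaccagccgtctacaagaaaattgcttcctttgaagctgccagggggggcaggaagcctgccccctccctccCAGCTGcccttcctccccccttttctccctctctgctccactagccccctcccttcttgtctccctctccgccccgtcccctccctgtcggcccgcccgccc
The *Fmod* window holds the E-box CATCTG at -189, counted from the start. That of *Aspn* holds CAGTTG at -97, that of *Ogn* CAGCTG at -162 and CACATG at -63 and -39, and that of *Bgn* CAGCTG at -102. A window of *Epyc*, not printed, holds CATTTG at -118 and CAGTTG at -106. The other window of *Epyc* and those of *Prelp*, *Kera* and *Omd* hold none and are not printed. The windows printed were taken from those with an E-box, so that each holds one follows from the choice. The windows of the higher genes *Kera* and *Prelp* have none. E-boxes are common: 66.2% of 32851 windows of this length hold at least one, and 5 of the 9 windows here do. The letters TATAAA, on either strand, occur in the windows of *Aspn* and *Ogn* and in 12.4% of all windows. Among the genes with a window, base composition did not divide those past 2-fold from those within it. *Dcn* and *Lum* have no window, and only *Bgn* and *Omd* stand within 2-fold, so little can be read from this. Among those past 2-fold, G and C made up 30.0% of the window of *Aspn* (2 CpG), 42.0% of *Ogn* (4), 42.4% of *Kera* (1), 51.2% of *Fmod* (2) and 55.6% of *Prelp* (5). Among those within 2-fold it was 64.4% for *Bgn* (7 CpG) and 38.4% for *Omd* (1). The windows of *Epyc*, for which no fold is given, had 39.2% (2 CpG) and 31.2% (0). The median of all windows is 52.4% and 6. These are matches of letters, and binding was not measured.

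The widest differences belonged to 3 neighbours on chromosome 10. *Kera*, for keratocan, a keratan sulfate proteoglycan of cornea and tendon, was at 21.4 FPKM in positive cells and 0.192 FPKM in negative cells (log2 ratio 4.23; NM_008438, mm9 chr10:97069839-97076322). The negative value rests on 895 aligned bases against 95276 in the positive library, so the size of its fold is poorly bounded. *Lum*, for lumican, which binds fibrillar collagen, was at 68.4 and 3.97 FPKM (3.80; NM_008524, chr10:97028135-97035337). *Dcn*, for decorin, which carries a single dermatan or chondroitin sulfate chain and binds TGF-beta as well as collagen, was at 66.2 and 6.42 FPKM (3.18; chr10:96942134-96980796). These genes ranked 63, 68 and 83 from the top among the log2 ratios of measured genes, where 0.736% were at least 8-fold higher. *Epyc*, for epiphycan, a proteoglycan of growth cartilage and the last gene of this row, stood apart from its neighbours at 0.311 FPKM in the positive library (1224 aligned bases) and was listed at 0 in the negative library (NM_007884, chr10:97106702-97144534). No fold is given for it.

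*Ogn* and *Fmod* were higher by a smaller margin. *Ogn*, for osteoglycin (mimecan), was at 17.1 FPKM in positive cells and 3.09 FPKM in negative cells (log2 ratio 2.14; NM_008760, chr13:49703440-49719869). *Fmod*, for fibromodulin, which binds type I collagen and takes part in its crosslinking, was at 11.4 and 2.51 FPKM (1.82; NM_021355, chr1:135934092-135944854). Their negative values rest on 18773 and 17139 aligned bases, more than the negative value of any other member except *Bgn*, *Dcn* and *Lum*.

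*Aspn* and *Prelp* were at low levels. *Aspn*, for asporin, an aspartate-rich member known to bind TGF-beta, was at 3.18 FPKM in positive cells and 0.381 FPKM in negative cells (log2 ratio 1.60; chr13:49639812-49662931). *Prelp*, for a heparin-binding matrix protein, was at 2.39 and 0.355 FPKM (1.32; NM_054077, chr1:135806882-135817978). Their negative values rest on 2141 and 3057 aligned bases. At such levels the added 1 FPKM shrinks the ratio: without it *Aspn* was 8.33-fold and *Prelp* 6.73-fold higher, more than *Ogn* at 5.51-fold and *Fmod* at 4.52-fold. With 5 FPKM added, their log2 ratios were 0.60 and 0.47, below 2-fold.

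*Bgn* and *Omd* were within 2-fold between the libraries. *Bgn*, for biglycan, the close relative of decorin with a pair of chains, was at 32.0 FPKM in positive cells and 20.2 FPKM in negative cells (log2 ratio 0.64; NM_007542, mm9 chrX:70728974-70741275). This is the best covered of the negative values, at 115234 aligned bases. With the libraries rescaled to equal sums (TPM) the log2 ratio was 1.10, and 1.02 with haemoglobin genes left out, both just past 2-fold. It was 0.97 with the median ratio set to 1 and 0.92 with equal upper quartiles. *Omd*, for osteomodulin (osteoadherin), a keratan sulfate proteoglycan known from bone, was at 1.89 and 1.41 FPKM (0.26; NM_012050, chr13:49678116-49687978). Among measured genes 7.01% had a log2 ratio at least as high as *Bgn*, and 13.2% one at least as high as *Omd*.

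The order of levels among the 10 genes therefore differed between the libraries. In the positive library it ran *Lum*, *Dcn*, *Bgn*, *Kera*, *Ogn*, *Fmod*, *Aspn*, *Prelp*, *Omd*, *Epyc*, and in the negative library *Bgn*, *Dcn*, *Lum*, *Ogn*, *Fmod*, *Omd*, *Aspn*, *Prelp*, *Kera*, *Epyc*. Without replicates, whether neighbours in these orders differ beyond their spread is not known; *Lum* and *Dcn* in the positive library (68.4 and 66.2 FPKM) and *Aspn* and *Prelp* in the negative library (0.381 and 0.355 FPKM) are closest. *Bgn* made up 52.4% of the summed level of the 10 genes in the negative library and 14.3% in the positive library. *Lum* went from 10.3% to 30.5%, *Dcn* from 16.7% to 29.5% and *Kera* from 0.499% to 9.54%, whereas *Ogn* (8.03% and 7.61%) and *Fmod* (6.51% and 5.07%) kept similar shares. Such shares are taken within a library, so no scaling between libraries enters them.

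**Figure D2:**
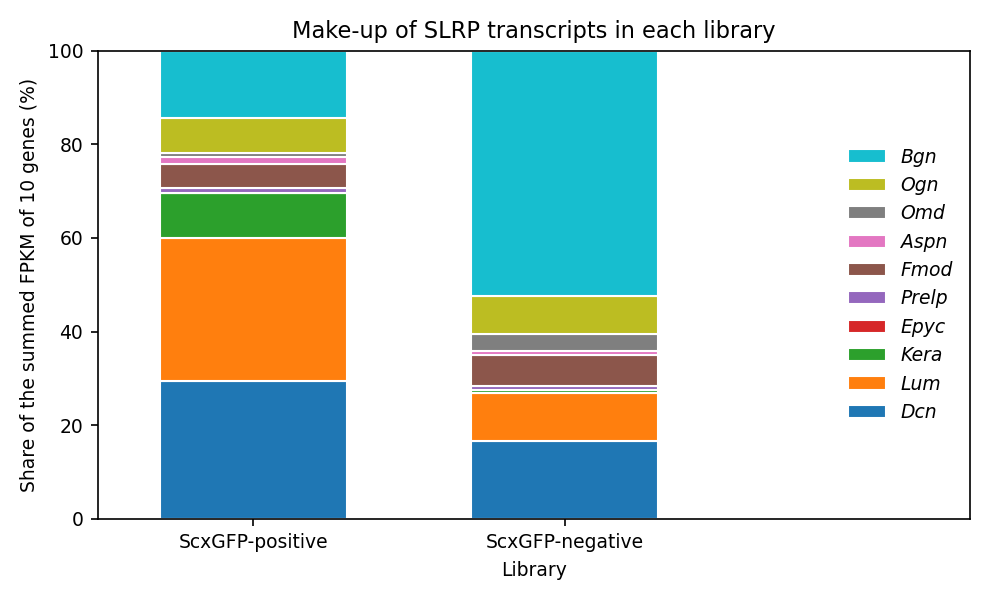
Share of each gene in the summed FPKM of the 10 genes, in percent, for the 2 libraries; each bar sums to 100 and stands for 1 library. *Bgn* is the largest part of the negative bar at 52.4% and 14.3% of the positive bar, where *Dcn* and *Lum* together are the largest.

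Ratios between genes of one library show the same without scaling. For each FPKM of *Bgn* there were 2.13 FPKM of *Lum* in positive cells but 0.197 FPKM in negative cells, a 10.9-fold difference. For *Dcn* over *Bgn* the ratios were 2.07 and 0.318. Set against *Col1a1*, for the alpha 1 chain of type I collagen (268 and 44.6 FPKM), *Lum* was at 25.5% of its level in positive cells and 8.90% in negative cells. *Dcn* was at 24.7% and 14.4%, *Ogn* at 6.36% and 6.93%, *Fmod* at 4.23% and 5.62%, and *Bgn* at 11.9% and 45.3%. *Lum* and *Dcn* were thus higher per *Col1a1* in the positive library, whereas *Ogn* was 1.09-fold, *Fmod* 1.33-fold and *Bgn* 3.79-fold lower per *Col1a1* there. Among the collagens, *Col3a1* kept its ratio to *Col1a1* (*Col1a1* over *Col3a1* was 1.17 in each library), *Col1a2* was 1.27-fold lower per *Col1a1* in the positive library, close to the shift of *Fmod*, and *Col6a1* was 1.88-fold higher.

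By position the 10 genes fall into 3 rows of neighbours and *Bgn* alone on chromosome X. On chromosome 10, *Dcn*, *Lum*, *Kera* and *Epyc* lie in this order with gaps of 47.3, 34.5 and 30.4 kb, and together they gave 156 FPKM in positive cells and 10.6 FPKM in negative cells, 14.8-fold. On chromosome 13, *Aspn*, *Omd* and *Ogn* lie 15.2 and 15.5 kb apart and gave 22.1 and 4.88 FPKM, 4.53-fold. On chromosome 1, *Prelp* and *Fmod*, 116 kb apart, gave 13.7 and 2.87 FPKM, 4.80-fold. The row on chromosome 10 held 69.7% of the summed level of the 10 genes in positive cells and 27.5% in negative cells. The row on chromosome 13 was not uniform: *Omd*, between *Aspn* and *Ogn*, was within 2-fold, as was *Ecm2*, a related leucine-rich repeat gene 11.7 kb before *Aspn* (1.80 and 1.42 FPKM).

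Genes that flank these rows were counted in the same way. Taking the 3 nearest symbols on each side and any that overlap a row gave 26 genes, of which 15 were measured: 0 were past 2-fold higher, 1 was lower and 14 were within 2-fold, with a median log2 ratio of −0.18 beside −0.27 for all measured genes. These counts are near the 4.03% higher and 9.98% lower of all measured genes. *Btg1* and *Atp2b1*, the nearest measured genes before and after the chromosome 10 row, had log2 ratios of −0.39 and 0.14, though they lie 857 and 1233 kb away. *Cenpp*, a centromere protein gene whose body spans the chromosome 13 row, was at 2.84 FPKM in positive cells and 3.64 FPKM in negative cells. The lower gene was *Dusp9*, a phosphatase gene 144 kb from *Bgn*, at 1.76 and 5.15 FPKM. The sources used here do not say whether reads were counted by strand, so reads of *Cenpp* and of the genes within it may not be told apart where exons overlap.

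**Figure D3:**
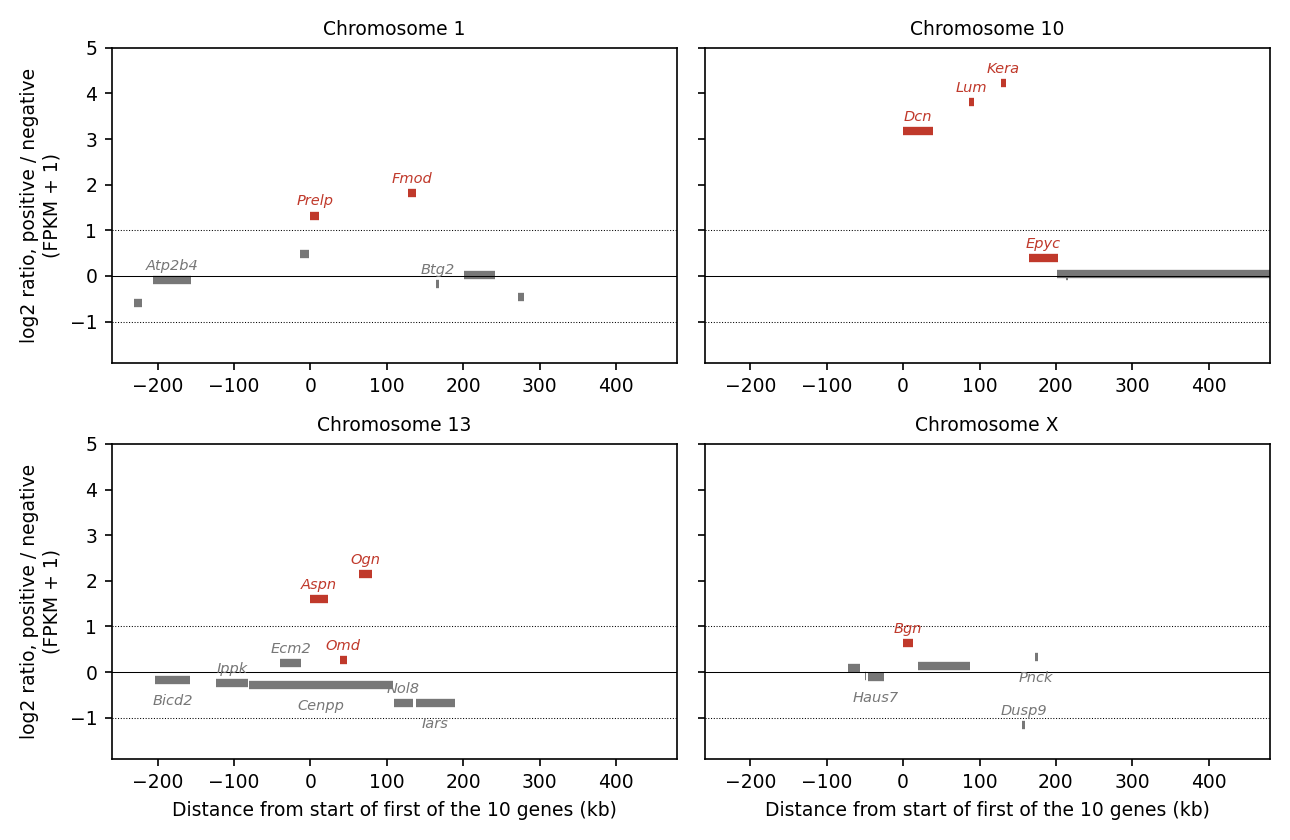
Log2 ratio (FPKM + 1, positive over negative) of the 10 genes (red) and flanking genes (grey) against distance in kb from the start of the first of the 10 genes on that chromosome; bar length is the gene's extent, dotted lines mark 2-fold, and flanking genes below 1 FPKM are unlabelled. *Dcn*, *Lum* and *Kera* lie above 3. *Epyc*, beside them, is drawn at 0.39 only through the added 1 FPKM (0.311 and 0 FPKM) and is not read as level. Flanking genes outside the plotted span are not drawn, and of those drawn *Dusp9* lies below the lower dotted line.

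For *Dcn* and *Aspn* the files list more than one transcript. *Dcn* was almost wholly assigned to NM_001190451, the model that starts farther upstream, with 99.3% of its FPKM in positive cells and nearly all of it in negative cells. For *Aspn*, NM_025711 held 84.3% in positive cells and 97.8% in negative cells; the models differ by few bases (2351 and 2334 bases long), and the lower value of NM_001172481 rests on 47.0 aligned bases in the negative library.

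Other members of the wider family were mostly low and level. Of 8 further SLRP family genes 5 were measured, of which 1 was higher and 4 were within 2-fold, beside 4.03% higher among all measured genes. The higher gene was *Podn*, for podocan, a collagen-binding member, at 2.60 FPKM in positive cells and 0.445 FPKM in negative cells (log2 ratio 1.32). *Tsku*, for tsukushi, a secreted signalling modulator, was at 4.16 and 2.20 FPKM (0.69), *Chadl* at 1.20 and 0.847 FPKM (0.26), and *Chad*, for the cartilage protein chondroadherin, at 0.722 and 1.19 FPKM (−0.35). *Optc*, for opticin, which lies 2.31 kb from *Prelp*, was below the filter at 0.516 and 0.0798 FPKM. *Nyx* (0.108 and 0.138) and *Podnl1* (0.319 and 0.427) were below 1 FPKM too.

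Collagens that SLRPs coat or accompany were higher as well. Of 13 listed, 12 were measured. Of these 10 were at least 2-fold higher and 0 lower, with a median log2 ratio of 1.79. Among all measured genes 4.03% were higher and 9.98% lower. The type VI genes *Col6a2* and *Col6a1*, whose microfibrils bind decorin and biglycan, were at 50.8 and 5.18 FPKM and at 26.8 and 2.37 FPKM (log2 ratios 3.07 and 3.05). *Col3a1* was at 230 and 38.2 FPKM (2.56). *Col2a1*, the cartilage fibril chain, was within 2-fold at 68.1 and 40.4 FPKM (0.74; named after its value was seen).

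Enzymes that build the glycosaminoglycan chains were past 2-fold about as seldom as measured genes in general (4.03% higher and 9.98% lower). Of 20 genes of the linker region and of chondroitin and dermatan sulfate, 18 were measured; 1 was higher, 1 was lower and 16 were within 2-fold, with a median log2 ratio of −0.01, 0.26 above that of all measured genes. The higher gene was *Csgalnact1*, which starts chondroitin chains (3.04 FPKM in positive cells and 0.840 FPKM in negative cells), and the lower was *Chst11*, a chondroitin 4-O-sulfotransferase (1.56 and 4.85 FPKM). *Chst15* and *Chsy3* came next by size, at 2.97 and 6.64 FPKM and at 1.58 and 0.369 FPKM. *Chst14* and *Dse*, which make dermatan sulfate, were at 8.61 and 5.85 FPKM and at 3.88 and 3.54 FPKM; they are named after their values were seen. Of 9 keratan sulfate genes 6 were measured, 0 higher and 1 lower, *B3gnt2*, a chain-extending enzyme, at 0.635 and 3.67 FPKM. *Chst5*, a sulfotransferase of keratan chains, was at 0.594 and 0.169 FPKM, below the filter, and *Chst4* was listed at 0 in each library; both are named after their values were seen. *Chst2*, a sulfotransferase gene, was at 4.07 and 2.33 FPKM (log2 ratio 0.61), *B3gnt7*, a chain-extending enzyme too, at 0.454 and 1.18 FPKM (−0.59), and *St3gal3*, a sialyltransferase gene, at 2.26 and 1.89 FPKM (0.17).

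Proteases and cofactors lay mostly within 2-fold, with a median log2 ratio of 0.58. Binding partners were mixed, with a median of 0.14. The median of all measured genes was −0.27. The counts below stand beside 4.03% higher and 9.98% lower among all measured genes. Of 11 proteases and cofactors 8 were measured, with 1 higher and 0 lower: *Pcolce*, the enhancer of procollagen C-proteinase, at 29.5 FPKM in positive cells and 12.3 FPKM in negative cells. *Bmp1*, the proteinase that trims the propeptides of biglycan and osteoglycin, was at 18.4 and 12.5 FPKM (log2 ratio 0.52; named after its value was seen), and *Mmp14*, a membrane-bound matrix metalloprotease, at 33.4 and 20.2 FPKM (0.70). *Adamts5*, an aggrecanase gene, was at 3.32 and 1.64 FPKM (0.71), *Tll1*, a relative of *Bmp1*, at 1.47 and 0.584 FPKM (0.64) and *Pcolce2* at 0.814 and 1.63 FPKM (−0.54). Of 15 receptors and growth factors 14 were measured, with 2 higher and 4 lower. *Wisp1*, a CCN protein known to bind decorin and biglycan, was at 6.09 and 0.716 FPKM and *Tgfb3* at 9.68 and 2.74 FPKM. *Tgfb1* was at 0.370 and 9.81 FPKM and *Kdr*, the endothelial VEGF receptor, at 0.579 and 5.68 FPKM. *Itga2* (0.300 and 1.96 FPKM) and *Tlr2* (0.376 and 2.05 FPKM) were the other lower genes, named after their values were seen.

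**Figure D4:**
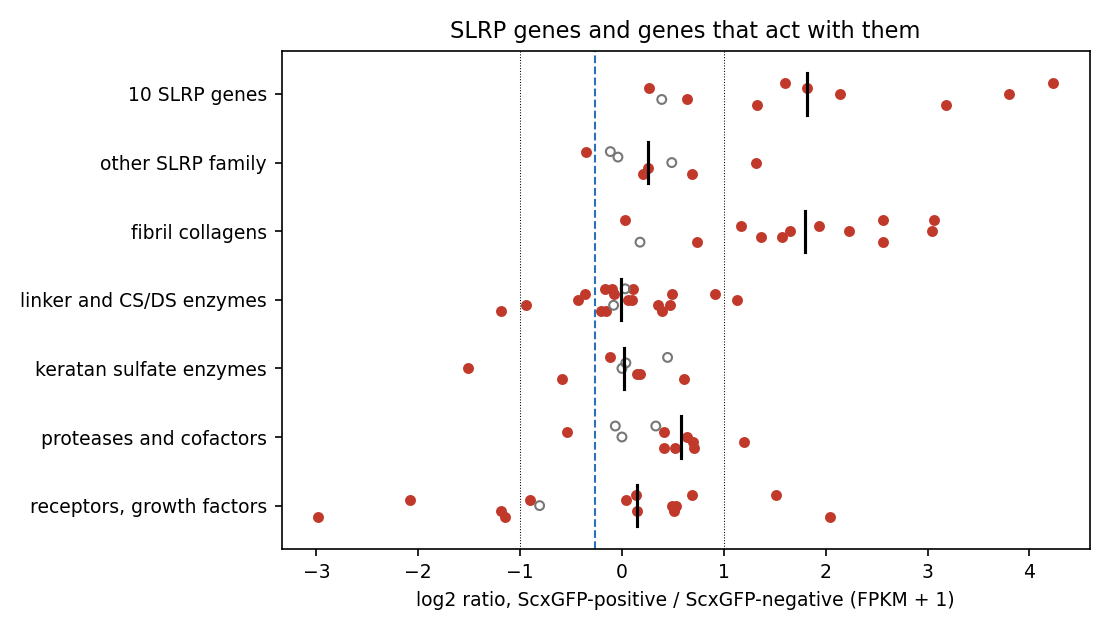
Log2 ratio (FPKM + 1, positive over negative) of each gene in the lists, 1 point per gene, filled where measured and open where below 1 FPKM in each library; black bars are medians of measured genes, the dashed line is the median of all measured genes (−0.27) and dotted lines mark 2-fold. The 10 SLRP genes and the collagens lie mostly right of 2-fold, and the enzymes lie mostly between the dotted lines, as do most measured genes.

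Genes with the most similar pair of levels, by distance on the log2(FPKM + 1) scale over 2 libraries, were *Meg3* and *Col6a2* for *Dcn* (distances 0.31 and 0.46) and *Col6a2* and *Dcn* for *Lum* (0.52 and 0.58). *Emx2* and *Tnnt2* were nearest to *Fmod* (0.10 and 0.12), *Nrk* and *Ebf1* to *Ogn* (0.18 and 0.22), and *Myh10* and *Mmp14* to *Bgn* (0.05 and 0.06). *Kera* was nearest to *Snord123* and *Mir434* (0.25 and 0.28), small RNAs listed at 0 in the negative library, whose FPKM is unstable. With 2 libraries this likeness describes only a level and a ratio.

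Markers of other cell types also differed between the libraries, where 4.03% of all measured genes were higher and 9.98% lower. Markers of loose connective tissue were higher in 7 of 8 genes (summed level 173 FPKM in positive cells and 48.4 FPKM in negative cells). The gene within 2-fold was *Tcf4* (32.62 and 21.96 FPKM, log2 ratio 0.55), which was listed by symbol and may not mark this tissue. Both sums include *Tcf4*, so they may misstate the level of this tissue's markers. Markers of skeletal muscle were higher in 7 of 8 measured of 10 (153 and 19.8 FPKM). Those of tendon, *Scx* and *Col1a1* included, were higher in 5 of 8 measured of 10 (465 and 70.9 FPKM). Those of smooth muscle and pericytes were higher in 2 of 5 measured of 8 (40.8 and 14.2 FPKM). Cartilage markers were higher in 1 of 8 measured of 10, with a median log2 ratio of −0.25. Most of their summed level (100.4 and 79.5 FPKM) was *Col2a1* (68.1 and 40.4 FPKM). Lower were all 8 erythroid (156 and 6429 FPKM), all 8 leukocyte (10.9 and 403 FPKM), 7 of 8 endothelial (3.59 and 56.5 FPKM) and 7 of 7 measured epidermal markers of 8 (11.9 and 319 FPKM), with 6 of 8 of Schwann cells and nerve (16.4 and 53.2 FPKM) and 3 of 4 measured of 8 of osteoblasts and perichondrium (22.6 and 64.2 FPKM). None of these markers was listed at 0 in the positive library. Their part in the differences of the SLRP genes was not tested.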

How the data were processed

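Per the labels, RNA of 2 sorted cell populations was isolated on RNeasy micro columns and turned into cDNA by NuGEN Ovation RNA-Seq v2, 1 library each. TopHat 1.4.1, Bowtie 0.12.7 and mouse build mm9 are named in the submitters' processing notes; the version of the abundance estimator and its use of strand are not given in the sources used here. The deposited values, per the file headers, are FPKM, coverage and length for 28107 RefSeq transcript rows per file; coverage was 2.28 and 2.39 times FPKM in the positive and negative library. Deposited starts count from 0 and had 1 added.

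FPKM was summed per symbol, and 6 symbols with a FAIL row were left out, none of them among the 10 genes. The pseudocount was 1, the filter 1 FPKM in either library and the threshold 2-fold. Of the listed genes past 2-fold, *Podn*, *Csgalnact1* and *Wisp1* reached the filter only in the positive library. *B3gnt2*, *Tgfb1*, *Kdr*, *Itga2* and *Tlr2* reached it only in the negative library, and several cell type markers also in 1 library only. Their place in the counts is owed to the library in which they are high. With 1 library per group no test was run. Read counts are unknown, so no counting interval is given. The ratio and call were checked for arithmetic only, on negative-library values of at least 5 FPKM set 4-fold higher or lower. No noise was added, so the calls were fixed in advance. That check says nothing of error or of genes with low values. Members and lists were chosen with earlier results of these data known. The rule for names took all 10 genes, the further family genes, of each list the 4 largest log2 ratios with the largest of opposite sign, measured flanking genes (3 per side), of which the text names a few, and the 2 genes nearest in level for members with at least 5 FPKM; other names in the lists are marked. Alternatives were 2 other pseudocounts, 4 scalings, 2 filters, the highest transcript row per symbol, and FAIL rows kept. Python 3.11.15, pandas 2.3.3 and matplotlib 3.10.9 were used.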

Additional observations from a re-analysis of the deposited data

How the results depend on the processing

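No paired analysis was possible because each group has 1 library. For the same reason no library could be left out. Under the alternatives run, the 9 measured SLRP genes kept a positive log2 ratio, and between 5 and 9 of the 10 genes passed 2-fold higher. These were 8 with a pseudocount of 0.1, where *Epyc* also passed, and 5 with a pseudocount of 5 (without *Aspn* and *Prelp*). With equal sums (TPM), with or without haemoglobin genes, there were 9, where *Bgn* and *Epyc* also passed. TPM values are larger than FPKM, so the same pseudocount weighs less there. The median log2 ratio of the measured SLRP genes, 1.82, was 2.45 with a pseudocount of 0.1, 1.12 with 5, 2.82 with TPM, 2.75 with TPM without haemoglobin genes and 2.66 with a minimum of 5 FPKM; the ratio of *Kera* ranged from 2.35 to 6.20.

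Over all measured genes, 488 higher and 1207 lower became 222 and 394 with a pseudocount of 5, 323 and 658 with a minimum of 5 FPKM, and 1133 and 1164 with TPM. TPM without haemoglobin genes gave 1032 and 1231, the median ratio set to 1 gave 716 and 936, and equal upper quartiles 672 and 967. The share of higher genes among those past 2-fold was 28.8%, against 49.3%, 45.6%, 43.3% and 41.0% under these 4 scalings, where the median of all genes was 0.10, 0.03, −0.00062 and −0.04.

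With a pseudocount of 0.1, the linker and chondroitin or dermatan enzymes had 2 higher and 2 lower, the keratan enzymes 2 lower and the proteases 2 higher. With a pseudocount of 5, these counts and those of higher further family genes and higher receptors or growth factors were 0, and 1 receptor or growth factor was lower. With the median ratio set to 1, 2 linker and chondroitin or dermatan enzymes were higher and 0 lower, and 2 proteases were higher; with equal upper quartiles 2 of these enzymes were higher. With TPM, with or without haemoglobin genes, 2 further family genes, 2 linker and chondroitin or dermatan enzymes, 1 keratan enzyme and 5 proteases were higher, and with haemoglobin genes 5 receptors or growth factors were. With a minimum of 5 FPKM, 0 further family genes and 0 enzymes of either kind passed 2-fold in the directions given above, and 2 receptors or growth factors were lower. The cause of these shifts was not tested, except that a higher pseudocount shrinks ratios of low genes and a higher filter leaves fewer genes.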
